A study of Homo sapiens with 8 samples.

Results

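Gene expression was compared between KDR+CD31+ cells sorted at day 8 and at day 4 of differentiation toward blood. Each day had 2 arrays, so the comparison held 4 of the study's 8 arrays, chosen by day and sort gate alone. Both groups came from the established human embryonic stem cell line H9, which had been kept on mouse embryonic fibroblast feeder layers. Both were differentiated in StemPro34 serum-free medium with BMP-4 and sorted by FACS for KDR, through which VEGF acts on endothelium, and CD31, an adhesion molecule of endothelial junctions and the product of PECAM1. The other 4 arrays held undifferentiated, unsorted H9 cells at day 0 and KDR+CD31+ cells sorted at day 6, and are used below only for levels. The labels call the arrays of a day biological replicates without naming the cultures, so p-values measure only the spread between these arrays, which may be technical, and H9 is a single line. The titles, descriptions and stages of both later samples read day 8, while their source names read day 4. The titles were followed.

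In the embryo the earliest blood cells arise beside and from endothelium, first in the yolk sac and then from specialised haemogenic endothelium of the large vessels. The primitive red cells carry embryonic globins, of which HBE1 encodes the epsilon chain and HBZ the zeta chain, and ALAS2 encodes the enzyme of the first step of haem synthesis in the erythroid lineage. Megakaryocytes, the source of platelets, appear in the same wave and share with red cells the transcription factors GATA1, TAL1 and NFE2.

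GATA factors bind short sites with a GATA core, so the letters before the starts of 4 blood genes with higher levels at day 8 are shown. The sequences are the RefSeq bases of GRCh38.p14, 5′ to 3′ on the strand of the gene, and end at the base before the transcription start. HBD encodes the delta chain of adult globin, ITGA2B the alpha subunit of the platelet fibrinogen receptor, and KLF1 an erythroid transcription factor. Capitals mark matches on either strand to the motif AGATAA, whose first letter was also allowed to be T and whose last was also allowed to be G, and matches may overlap.
HBD, chr11:5234484-5234733, minus strand: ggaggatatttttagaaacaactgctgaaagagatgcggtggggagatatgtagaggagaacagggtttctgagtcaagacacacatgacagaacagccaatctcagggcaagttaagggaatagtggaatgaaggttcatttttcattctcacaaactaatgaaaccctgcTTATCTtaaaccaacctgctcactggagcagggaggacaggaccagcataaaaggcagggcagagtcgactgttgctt
ALAS2, chrX:55030978-55031227, minus strand: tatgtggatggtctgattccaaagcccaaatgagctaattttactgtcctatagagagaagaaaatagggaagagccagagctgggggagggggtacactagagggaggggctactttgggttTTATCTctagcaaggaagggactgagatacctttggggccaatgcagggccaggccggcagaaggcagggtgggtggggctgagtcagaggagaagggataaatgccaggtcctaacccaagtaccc
ITGA2B, chr17:44389650-44389899, minus strand: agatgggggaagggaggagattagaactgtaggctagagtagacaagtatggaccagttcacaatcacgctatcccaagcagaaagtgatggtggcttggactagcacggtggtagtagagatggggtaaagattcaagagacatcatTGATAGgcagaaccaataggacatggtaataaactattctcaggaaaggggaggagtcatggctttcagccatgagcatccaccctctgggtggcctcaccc
KLF1, chr19:12887202-12887451, minus strand: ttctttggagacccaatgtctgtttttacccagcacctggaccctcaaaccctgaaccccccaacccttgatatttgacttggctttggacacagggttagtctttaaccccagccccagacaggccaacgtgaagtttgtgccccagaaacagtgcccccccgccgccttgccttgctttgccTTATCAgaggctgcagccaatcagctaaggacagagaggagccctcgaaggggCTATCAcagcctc

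HBD, ALAS2 and ITGA2B held 1 match each and KLF1 held 2. Of 35116 windows of 250 bases in the table, 22.3% held a match, and of 15213 windows of the genes tested here 14.4% did. Of 111 windows of the genes at least 2-fold higher at day 8 without overlap, 25 (22.5%) held one. A match is a description of letters and not a bound site. Promoters of 9 genes were looked for and 5 were found, the fifth being GFI1B, with windows at 2 starts, 1 of them with a match. HBE1, HBZ, PF4 and NFE2 are named only.

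Median intensity lay between 89.8 and 93.3 on the 4 arrays. Over the 12870 genes tested (genes, not replicates) Pearson's r was 0.978 between the day 8 arrays and 0.948 between the day 4 arrays. Replicate 1 of day 4 stood apart, with r of 0.952 and 0.932 to the day 8 arrays, against 0.976 and 0.968 for replicate 2 of day 4. At day 4, 885 genes lay over 2-fold apart between the replicates, and at day 8, 205 did. The ratio of the 3′ to the 5′ control probe set of ACTB, a sign of RNA quality, read 19.0 and 9.18 on the day 4 arrays against 9.91 and 15.1 on those of day 8. For GAPDH it read 2.22 and 2.15 against 2.41 and 3.08, and the days did not overlap. The part of this ratio in the results below was not tested. In the order of replicates 1 and 2, levels are log2(intensity + 32), and a difference is the mean of day 8 minus that of day 4 on this log2 scale, with its SE from the fit.

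Cells of both days were sorted on KDR and CD31 protein. High RNA of KDR and PECAM1 follows from that sort and is no test of the gate. KDR stood at 13.65 and 13.79 at day 4 and at 13.87 and 13.59 at day 8, a difference of 0.01 ± 0.17 that turned negative when the arrays were centred on their medians. PECAM1 stood at 12.85 and 13.14 at day 4 and at 13.18 and 13.34 at day 8. It was higher without overlap, with a difference of 0.26, and all 5 of its probe sets were higher. Of 8 defining markers of endothelium (CDH5, TEK, TIE1, ESAM, CLDN5, CLEC14A, ERG and FLI1), 8 lay above the array median on all 4 arrays, with a summed intensity from 30629.9 to 36747.9 at day 4 and from 32119.9 to 34765.9 at day 8. CDH5, the adherens junction cadherin of endothelium, stood at 12.25 and 13.14 at day 4 and at 13.04 and 13.06 at day 8. TEK, the angiopoietin receptor, stood at 13.01 and 13.12 at day 4 and at 12.88 and 12.89 at day 8. Endothelial markers were thus present on each array.

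No gene passed limma's test at an adjusted p of 0.05 (0% of 12870). An unadjusted p under 0.05 was reached by 698 genes (5.42%), 259 higher and 439 lower at day 8, where 644 would be reached if no gene differed. The smallest adjusted p was 0.0723, for HBE1, and ALAS2 and HBD followed at 0.0952. ALAS2 and HBD passed the filter on low values only through day 8, so their direction was fixed beforehand. Without that filter limma's adjusted p was 0.168 for both and 0.131 for HBE1. With 2 against 2 arrays an exact permutation test cannot give a two-sided p below 0.333, so genes are given by whether the arrays of the days overlap and by the size of the difference. Both day 8 arrays lay above both day 4 arrays in 1978 genes (15.4%) and below them in 2950 (22.9%), against a median difference over all genes of −0.06. If no gene differed between the days, a share of 0.333 would still be expected not to overlap, both directions together. Lack of overlap is thus a description and no test. At least 2-fold apart and not overlapping were 98 genes higher at day 8 (0.761%) and 96 lower (0.746%), 10 and 3 of them at least 4-fold. The filter on low values was passed through day 8 alone by 14 of the 98 and through day 4 alone by 5 of the 96, so these had to differ. Of the 98, replicate 1 of day 4 was the lowest array in 74, and of the 96 it was the highest in 64. Without replicate 2 of day 4 the test called 92 genes, 56 higher and 36 lower, of which 37 overlapped once all 4 arrays were used. Without that array the 2-fold counts were 345 higher and 545 lower, without replicate 1 of day 8 they were 154 and 331, and without replicate 2 of day 8 the lower count was 57. Of the 166 genes named by rule 102 have several probe sets. Over all of a gene's probe sets, dim ones included, the difference was smaller by over 1.5 times or turned in 62 of them, and in 17 the probe sets above the filter disagreed in direction.

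**Figure D1:**
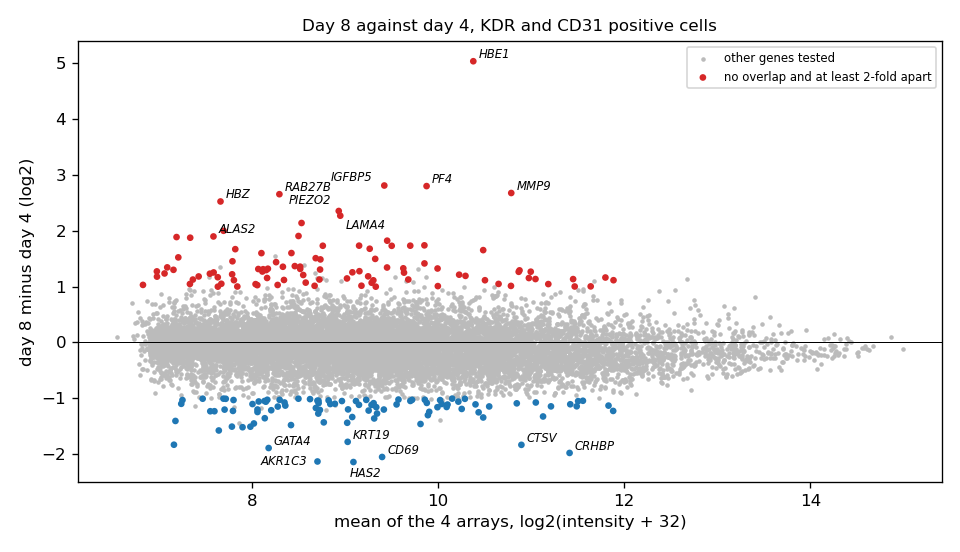
Difference between day 8 and day 4 (vertical axis, log2) against the mean level of the 4 arrays (horizontal axis, log2(intensity + 32)) for 12870 genes, 1 point per gene. Red points are the 98 genes higher and blue points the 96 genes lower at day 8 by at least 2-fold without overlap, and HBE1 lies alone at 5.04.

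HBE1, the embryonic epsilon globin, had the largest difference of the genes tested. Its intensity of 173.6 and 230.0 on the day 4 arrays compared with 8943.0 and 6457.6 on those of day 8. On the log2 scale it stood at 7.68 and 8.03 against 13.13 and 12.66, a difference of 5.04 ± 0.28 or 32.9-fold. The lowest day 8 array lay 4.63 above the highest day 4 array. At day 6 the replicates were far apart, at 7.59 and 11.97, so that replicate 1 resembled day 4 and replicate 2 neared day 8. A further HBE1 probe set was dim on the 4 arrays, and the mean over both probe sets gave a difference of 2.45.

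HBZ, the embryonic zeta globin, stood at 6.58 and 6.22 at day 4 and at 9.77 and 8.08 at day 8, a difference of 2.53 ± 0.55. Replicate 1 was the higher of the day 8 arrays. HBD stood at 6.37 and 6.42 at day 4 and at 8.38 and 8.17 at day 8, a difference of 1.88 ± 0.13. HBB, the adult beta chain, whose sequence is close to that of HBD, stood at 7.36 and 7.49 at day 4 and at 7.40 and 7.45 at day 8. Probe sets of near-identical globin copies can share signal, and the split between them is uncertain. The probe sets of the fetal and alpha globins carry several gene symbols, and those genes were not analysed here.

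ALAS2 was level within each day and apart between them. It stood at 6.62 and 6.66 at day 4 and at 8.57 and 8.502 at day 8, a difference of 1.90 ± 0.14, with 6.63 and 8.45 at day 6. Averaged with a dim second probe set the ALAS2 difference was 0.98. Neither day 4 array of HBZ, HBD or ALAS2 lay above the array median, so their folds start from the dim end of the scale, where the added 32 units hold them down. Later enzymes of haem synthesis did not follow: UROS, PPOX, FECH, CPOX, UROD and ALAD had differences between −0.17 and 0.20 and overlapped. SLC25A37, which carries iron into mitochondria, stood at 9.15 and 9.65 at day 4 and at 10.21 and 10.05 at day 8, and 7 of its 8 probe sets above the filter were higher. In the list of globin and haem genes as a whole the median difference was 0.04, which ran from −0.02 to 0.34 with 1 array left out. Of 14 tested members 5 (35.7%) were higher without overlap and 0 lower, beside 15.4% and 22.9% of all genes. HBZ, HBD and ALAS2, 3 of these 5, passed the filter on low values only through their day 8 arrays and so had to be higher, and the count is given as a description.

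Among red cell membrane genes and erythroid factors, 8 of 16 (50.0%) were higher without overlap and 0 lower, beside 15.4% and 22.9% of all genes. The median difference was 0.28. NFE2 passed the filter only through day 8. TFRC, the transferrin receptor, stood at 11.68 and 10.76 at day 4 and at 12.50 and 12.26 at day 8, a difference of 1.16 ± 0.35 that was 0.49 over all its probe sets. NFE2 stood at 6.17 and 6.46 against 7.64 and 7.05, and KLF1 at 7.13 and 7.04 against 7.87 and 7.65. GATA1, their common regulator, was also higher without overlap, at 7.49 and 7.56 at day 4 and at 7.64 and 7.90 at day 8. Its difference was small, at 0.24. RHAG, part of the red cell Rh complex and named after its values were seen, overlapped, at 10.14 and 8.42 at day 4 and at 10.41 and 10.004 at day 8. KEL, the Kell blood group protein, and ANK1, the red cell ankyrin, differed by 0.43 and 0.29.

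**Figure D2:**
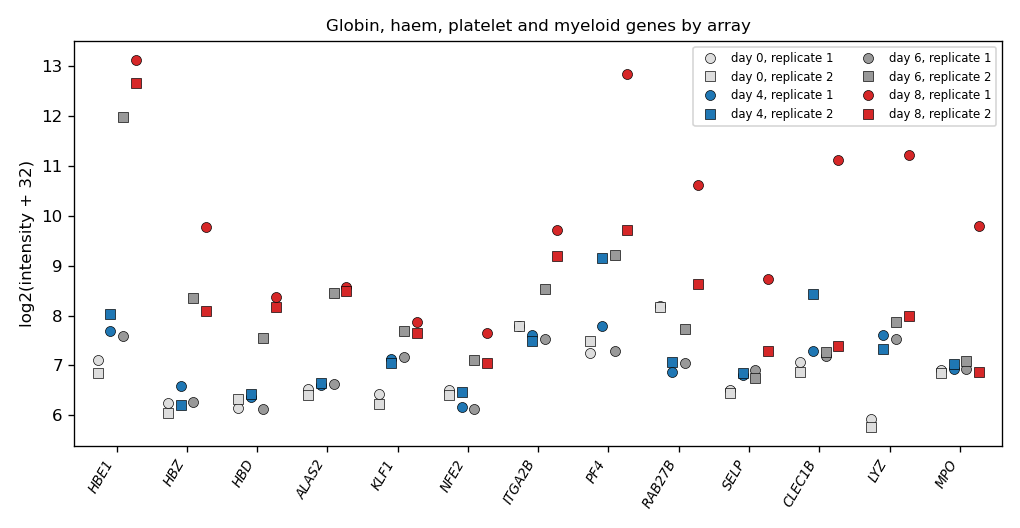
Level of 13 blood genes (log2(intensity + 32)) on each of 8 arrays, 1 point per array, with day 0 in light grey, day 4 in blue, day 6 in dark grey and day 8 in red, circles for replicate 1 and squares for replicate 2. HBE1, ALAS2 and HBD are high on both day 8 arrays and on replicate 2 of day 6, whereas CLEC1B, LYZ and MPO are high on replicate 1 of day 8.

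Genes of megakaryocytes and platelets were, of the 28 lists other than the gate genes, the list with the largest share of members higher at day 8. Of 19 tested, 12 were higher and 2 lower without overlap, beside 15.4% and 22.9% of all genes, and the median difference was 0.65. SELP and NFE2, 2 of the 12, passed the filter only through day 8. The median was 0.86 against replicate 1 of day 4 alone and 0.46 against replicate 2. Without replicate 1 of day 8 it was 0.46, and without replicate 2 it was 0.76.

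ITGA2B was apart between the days with replicates near each other. It stood at 7.60 and 7.49 at day 4 and at 9.72 and 9.19 at day 8, a difference of 1.91 ± 0.25, with 7.52 and 8.54 at day 6. All 3 of its probe sets that passed the filter were higher. PF4, the chemokine of platelet granules, stood at 7.80 and 9.15 at day 4 and at 12.84 and 9.72 at day 8, so that most of its difference of 2.80 ± 1.07 came from replicate 1 of day 8. Without that array its difference was 1.24. RAB27B, a small GTPase of platelet granule release, stood at 6.87 and 7.06 against 10.62 and 8.63. Its mean over all probe sets, dim ones included, differed by 0.92, that of ITGA2B by 1.16 and that of SRGN by 0.88. SRGN, the granule proteoglycan serglycin, stood at 7.83 and 9.02 against 10.99 and 9.22. SELP, the P-selectin of platelet and endothelial granules, stood at 6.82 and 6.86 against 8.74 and 7.30. In each of these last 3 genes replicate 1 of day 8 was again the highest array. GP1BA and MMRN1, a platelet receptor subunit and the granule protein multimerin, had differences of 0.65 and 0.79. The members lower at day 8 were the thrombin receptors F2RL2 and F2R, at −0.24 and −0.20, and a second F2R probe set went the other way.

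Replicate 1 of day 8 also held the highest levels of several genes of granules and of other cell types, named here after their values were seen. CLEC1B, the podoplanin receptor of platelets, stood at 11.12 on it and at 7.38 on replicate 2, against 7.29 and 8.43 at day 4. MPO, the myeloperoxidase of myeloid granules, stood at 9.80 and 6.86 at day 8 against 6.93 and 7.04 at day 4. SOX2, a factor of undifferentiated and neural cells, stood at 9.32 on replicate 1 and at 6.14 on replicate 2, against 6.91 and 5.83. ZIC2, a factor of the neural plate, stood at 9.15 and 6.39 against 7.68 and 6.16. These arrays pool many cells, and more cells of a type cannot be told apart from more RNA per cell.

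Summed marker intensities include the single genes above and so are no separate evidence. On replicate 1 of day 8 the brightest members, HBE1, PF4 and LYZ, read 8943.0, 7288.9 and 2350.3. GP9, a megakaryocyte marker, overlapped, at 7.61 and 7.42 at day 4 and at 7.71 and 7.56 at day 8. The 4 megakaryocyte markers, each above the median on all arrays, summed to 724.0 and 1105.9 at day 4 and to 8716.9 and 1879.5 at day 8. The erythroid markers, 4 of 6 above the median on all arrays, summed to 1658.3 and 909.3 at day 4 and to 11826.6 and 8396.6 at day 8. The myeloid markers summed to 507.4 and 444.6 at day 4 and to 3433.8 and 572.5 at day 8, with PTPRC, SPI1 and CD14 below the median on each array. Of 12 myeloid genes tested, 5 (41.7%) were higher and 0 lower without overlap, beside 15.4% and 22.9% of all genes. LYZ, lysozyme, stood at 7.60 and 7.32 against 11.22 and 7.99, and MRC1, a mannose receptor of macrophages and sinusoidal endothelium, at 10.83 and 10.13 against 11.23 and 12.003. The other members higher without overlap, FCER1G, CSF3R and ITGAM, differed by only 0.17, 0.14 and 0.08. Without replicate 1 of day 8, LYZ differed by 0.53, and over both its probe sets by 1.34. The myeloid list's median was 0.16, and 0.27 against replicate 2 of day 4 alone.

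Factors of the passage from endothelium to blood were higher in 10 of 23 members (43.5%) and lower in 0 without overlap. Of all genes 15.4% were higher and 22.9% lower. The list's median difference was 0.25, and most of its differences were small. Beside ITGA2B, which stands in this list too, ADGRG1, an adhesion receptor of blood stem cells, stood at 7.70 and 8.08 at day 4 and at 8.70 and 8.48 at day 8. GATA2, a regulator of blood stem cells, stood at 10.17 and 10.45 against 10.71 and 10.76, with 2 of its 3 probe sets higher. ADGRG1 differed by 0.38 and GATA2 by 0.21 over all probe sets. GFI1B, a repressor that acts in red cells and platelets, differed by 0.40, CSF2RB, a cytokine receptor subunit, by 0.39, and CD34 by 0.26. TAL1 overlapped, at 12.20 and 11.53 at day 4 and at 12.01 and 11.75 at day 8, with a difference of 0.02 whose sign moved with the probe set and the centring. RUNX1, whose probe sets carry several symbols, was not analysed here.

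**Figure D3:**
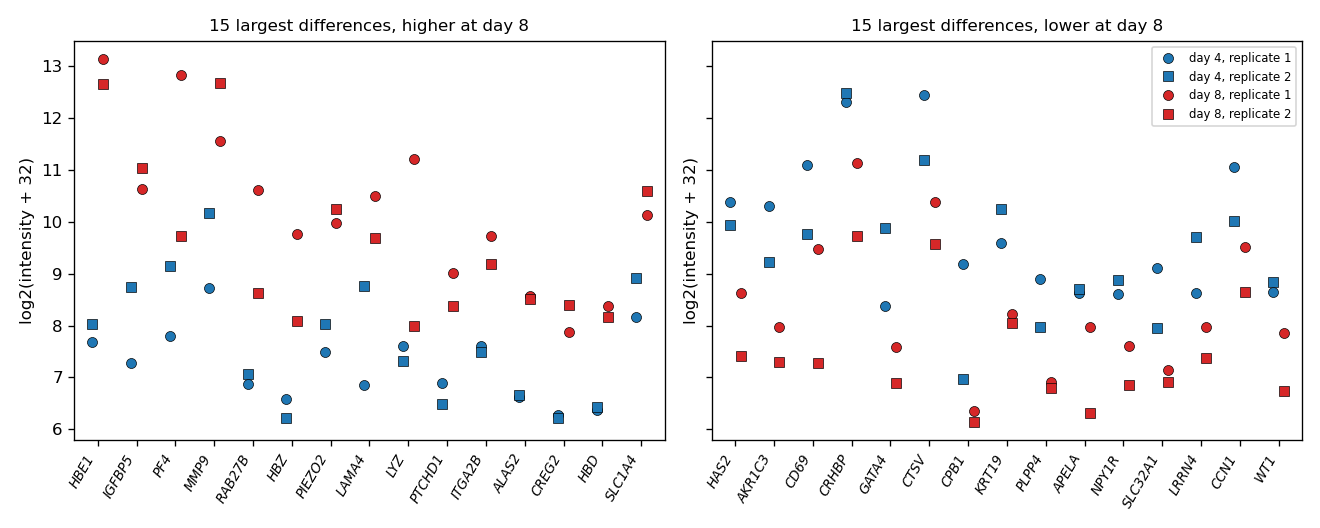
Level (log2(intensity + 32)) of the 15 genes with the largest differences higher at day 8 (left) and lower at day 8 (right) among those without overlap, 1 point per array, day 4 in blue, day 8 in red, circles for replicate 1 and squares for replicate 2. HBE1, ALAS2 and HBD have close replicates, while PF4, LYZ and CPB1 have 1 array far from its partner.

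Among the 15 largest differences higher at day 8 were also genes of no blood lineage list. IGFBP5, a binding protein of insulin-like growth factors, stood at 7.28 and 8.75 at day 4 and at 10.62 and 11.03 at day 8, a difference of 2.81 ± 0.51. MMP9, a gelatinase, stood at 8.72 and 10.17 against 11.57 and 12.68, and PIEZO2, a stretch-gated channel, at 7.49 and 8.02 against 9.98 and 10.24. SLC1A4, a carrier of neutral amino acids, stood at 8.16 and 8.92 against 10.13 and 10.60. In IGFBP5, MMP9, PIEZO2 and SLC1A4 replicate 1 of day 4 was the lowest array, and their differences from replicate 2 of day 4 alone were 2.08, 1.95, 2.09 and 1.45. Over all probe sets of the gene, dim ones included, IGFBP5 differed by 0.77, PIEZO2 by 0.56 and SLC1A4 by 1.05. PTCHD1, a patched-domain membrane protein gene, stood at 6.89 and 6.50 against 9.01 and 8.38. CREG2, a secreted glycoprotein gene, stood at 6.28 and 6.22 against 7.88 and 8.39. PTCHD1 and CREG2 passed the filter on low values only through day 8 and so had to be higher.

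Of basement membrane genes, 8 of 16 (50.0%) were higher without overlap and 1 (6.25%) lower, beside 15.4% and 22.9% of all genes. The median difference was 0.52. LAMA4, the laminin alpha chain of vessels, stood at 6.86 and 8.77 at day 4 and at 10.49 and 9.68 at day 8, a difference of 2.27 ± 0.67 that was 0.53 over all its probe sets, the others of which were dim. HSPG2, the proteoglycan perlecan, stood at 9.48 and 10.92 against 11.02 and 11.004, so that replicate 2 of day 4 nearly met day 8. AGRN, the proteoglycan agrin, stood at 8.56 and 8.72 against 9.12 and 9.67, but of its 4 probe sets above the filter 2 were higher and their mean differed by 0.35. LAMC1, the shared laminin gamma chain, stood at 12.01 and 12.83 against 13.24 and 12.96. COL4A2, a chain of collagen IV, differed by 0.63 and COL4A6 by −0.34, with 1 of 2 COL4A6 probe sets lower. Over both probe sets HSPG2 differed by 0.48. Against replicate 1 of day 4 alone the list's median was 0.84, and against replicate 2 it was 0.16.

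Endothelial identity genes split. Without overlap 6 of 29 (20.7%) were higher and 3 (10.3%) lower, beside 15.4% and 22.9% of all genes. The median difference was 0.19, which was −0.03 against replicate 2 of day 4 alone. ROBO4, a guidance receptor that steadies vessels, stood at 8.44 and 8.87 at day 4 and at 9.75 and 9.93 at day 8. SOX18, a SOXF factor, stood at 6.38 and 7.23 against 7.60 and 8.11. CLDN5, a tight junction claudin, stood at 10.25 and 11.69 against 11.79 and 12.14, and FLT4, the receptor of VEGFC, at 8.74 and 8.82 against 9.52 and 9.88. FLT4 was thus the most even of these 4 at day 4, but only 1 of its 3 probe sets was higher, and their mean differed by 0.23. For ROBO4 1 of 2 probe sets was higher, and the mean differed by 0.56. ECSCR, an endothelial surface protein, and FLI1, an ETS factor of endothelium and blood, were lower, with differences of −0.46 and −0.41.

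In the venous and lymphatic list 3 of 13 (23.1%) were higher and 3 (23.1%) lower without overlap, beside 15.4% and 22.9% of all genes. The higher members were LYVE1, STAB2 and STAB1, and the lower were TEK, ACKR1 and PROX1. LYVE1 and STAB2 passed the filter only through day 8 and so had to be higher. LYVE1, the hyaluronan receptor, stood at 6.19 and 6.64 at day 4 and at 7.80 and 7.72 at day 8. STAB2 stood at 6.39 and 6.62 against 7.35 and 8.26, and STAB1 at 8.77 and 9.46 against 9.78 and 10.71. All 3 had low levels at day 6, where STAB2 read 6.47 and 6.67, except replicate 2 of STAB1, at 10.35. Over all probe sets LYVE1 differed by 0.89, STAB2 by 0.74 and STAB1, with 2 of 3 probe sets higher, by 0.38. PROX1, the master factor of lymphatic identity, was lower by a small amount, with a difference of −0.17, and the list's median was −0.02, and −0.13 against replicate 2 of day 4 alone.

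Arterial and Notch genes were mixed. NOTCH4, the endothelial Notch receptor, stood at 8.91 and 9.75 at day 4 and at 10.72 and 10.60 at day 8, and JAG2, a Notch ligand, at 10.59 and 10.34 against 11.13 and 11.12. The Notch targets HES1 and HEY2 were lower, HES1 at 10.62 and 10.92 against 9.98 and 10.24 and HEY2 at 10.31 and 10.92 against 10.24 and 9.34. In all, 2 of 21 (9.52%) were higher and 2 (9.52%) lower without overlap, both below the 15.4% and 22.9% of all genes. The list's median was 0.30. That median was 0.81 against replicate 1 of day 4 and −0.03 against replicate 2, and 0.14 without replicate 1 of day 8. NOTCH4 differed by 0.74 and HES1 by −0.28 over all probe sets.

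Genes of VEGF and TIE signalling numbered 24, with 3 (12.5%) higher and 2 (8.33%) lower without overlap. Both shares were below the 15.4% and 22.9% of all genes, and the median was 0.11. The median was −0.004 against replicate 2 of day 4 alone, −0.002 without replicate 1 of day 8 and 0.25 without replicate 2. ANGPT1, the ligand that activates TEK, stood at 7.67 and 7.36 at day 4 and at 8.90 and 8.22 at day 8. VEGFA, the main ligand of KDR, was lower, at 9.28 and 9.59 against 8.53 and 8.54. The ligand and its gate receptor thus differed by −0.90 and 0.01. Over all probe sets VEGFA differed by −0.44 and ANGPT1 by 0.62.

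Of 16 genes of cardiac and lateral mesoderm, 0 were higher at day 8 and 9 lower without overlap, beside 22.9% lower over all genes, and 7 overlapped. The median difference was −0.27, with −0.34 against replicate 1 of day 4 and −0.15 against replicate 2. GATA4, a factor of heart and endoderm, stood at 8.37 and 9.88 at day 4 and at 7.58 and 6.89 at day 8, a difference of −1.89 ± 0.54. WT1, a factor of the coelomic lining, stood at 8.65 and 8.85 against 7.86 and 6.73. PDGFRA, a receptor of mesoderm that differed by −0.44 over all its probe sets, stood at 11.24 and 9.84 against 9.49 and 8.99, and GATA6 at 11.41 and 10.69 against 10.64 and 10.49. ISL1, a progenitor factor of the heart, and NKX2-5, a cardiac homeobox factor, had differences of −0.45 and −0.43. Cardiac markers summed to between 372.1 and 507.4 on the 4 arrays, and the highest sum was on replicate 1 of day 4. Over all 5 GATA4 probe sets, of which 2 passed the filter, the mean differed by −0.47, and over both of WT1 by −0.75.

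The largest differences lower at day 8 were in HAS2, AKR1C3, CD69 and CRHBP. HAS2, which makes hyaluronan, stood at 10.39 and 9.94 at day 4 and at 8.63 and 7.41 at day 8, a difference of −2.14 ± 0.45. AKR1C3, a steroid and prostaglandin reductase, stood at 10.31 and 9.23 against 7.97 and 7.30, a difference of −2.13 ± 0.44. CD69, a lymphocyte activation antigen, stood at 11.09 and 9.76 against 9.47 and 7.28, with day 8 replicate 1 close below day 4 replicate 2. CRHBP, which binds corticotropin-releasing hormone, stood at 12.32 and 12.49 against 11.12 and 9.72. At day 6 it stood at 9.22 and 9.47, below both day 8 arrays. KRT19, an epithelial keratin, had the widest gap between the days of the lower genes, at 9.59 and 10.25 against 8.23 and 8.05, and differed by −0.91 once a dim probe set was averaged in. APELA, a ligand of the apelin receptor, stood at 8.62 and 8.70 against 7.97 and 6.31. CTSV, a cathepsin, stood at 12.44 and 11.19 against 10.38 and 9.57. CPB1, a carboxypeptidase, stood at 9.19 and 6.96 against 6.36 and 6.14, so that without replicate 1 of day 4 its difference of −1.83 was −0.72. CPB1 passed the filter on low values only through day 4 and so had to be lower.

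Several targets and regulators of BMP signalling had lower levels on both day 8 arrays. Of 22 BMP and TGF-beta genes 4 (18.2%) were higher and 8 (36.4%) lower without overlap, beside 15.4% and 22.9% of all genes. The list's median was −0.27, and −0.08 without replicate 2 of day 8. BMP-4 was in the medium of both groups. SMAD9, a SMAD of the BMP branch, stood at 8.25 and 8.39 at day 4 and at 7.52 and 7.05 at day 8. The targets ID3 and SMAD7 stood at 11.50 and 11.997 against 11.30 and 10.75 and at 8.70 and 9.49 against 8.39 and 8.36. BMPER, a BMP-binding protein, and the ligand BMP2 had differences of −1.01 and −0.56. ID1, named after its values were seen, overlapped, at 9.59 and 11.83 against 9.70 and 8.95. The 4 higher members were the ligand TGFB1, with a difference of 0.73, and the receptors TGFBR3, TGFBR2 and BMPR2, with 0.59, 0.51 and 0.47. For TGFB1 1 of 2 and for BMPR2 4 of 5 probe sets above the filter were higher. Over all probe sets TGFB1 differed by 0.33, TGFBR2 by 0.31 and SMAD9 by −0.51.

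Of 24 WNT genes 2 (8.33%) were higher and 5 (20.8%) lower without overlap, both below the 15.4% and 22.9% of all genes. The list's median was −0.05. The median was −0.25 against replicate 1 of day 4 alone, −0.33 without replicate 1 of day 8 and 0.03 without replicate 2. WNT5B, a ligand, stood at 7.98 and 7.26 at day 4 and at 9.08 and 9.37 at day 8, and differed by 0.49 with its dim probe sets averaged in. SOST, the secreted WNT antagonist sclerostin, stood at 12.74 and 11.32 against 10.94 and 11.02, and RSPO3, a WNT enhancer, at 8.42 and 8.90 against 8.02 and 7.20. WNT11, a ligand of the early mesoderm, stood at 8.66 and 8.69 against 7.62 and 7.69.

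Of 22 immediate early genes 2 (9.09%) were higher and 8 (36.4%) lower without overlap, beside 15.4% and 22.9% of all genes. The list's median was −0.31 and ran from −0.48 to −0.20 with 1 array left out. CCN1, a matrix signalling protein, stood at 11.07 and 10.02 at day 4 and at 9.52 and 8.65 at day 8. KLF2, a factor of vessels under flow, stood at 11.64 and 12.51 against 10.92 and 11.53, with 1 of 2 probe sets lower and a mean difference of −0.38. FOSB went the other way, at 9.60 and 8.90 against 9.94 and 10.08.

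Plasma protein genes of yolk sac endoderm varied mainly between the day 4 arrays. APOA2, an apolipoprotein, stood at 9.18 and 13.21 at day 4 and at 11.08 and 11.18 at day 8, and AFP, the fetal albumin, at 10.84 and 12.99 against 13.12 and 12.56. Both overlapped, and their difference changes sign with 1 day 4 array: AFP differed by −0.15 without replicate 1, and APOA2 by 1.95 without replicate 2. The list's median was 0.04, with 1.04 against replicate 1 and −0.23 against replicate 2. AHSG, the plasma glycoprotein fetuin, was higher on both day 8 arrays, at 8.14 and 9.82 against 10.69 and 10.76, and FGG, a fibrinogen chain, at 7.12 and 8.60 against 9.41 and 8.95. The yolk sac and liver markers, 4 of 6 above the median on all arrays, summed to 2854.8 and 20652.5 at day 4 and to 12516.9 and 9327.8 at day 8. Their part in the other differences was not tested.

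**Figure D4:**
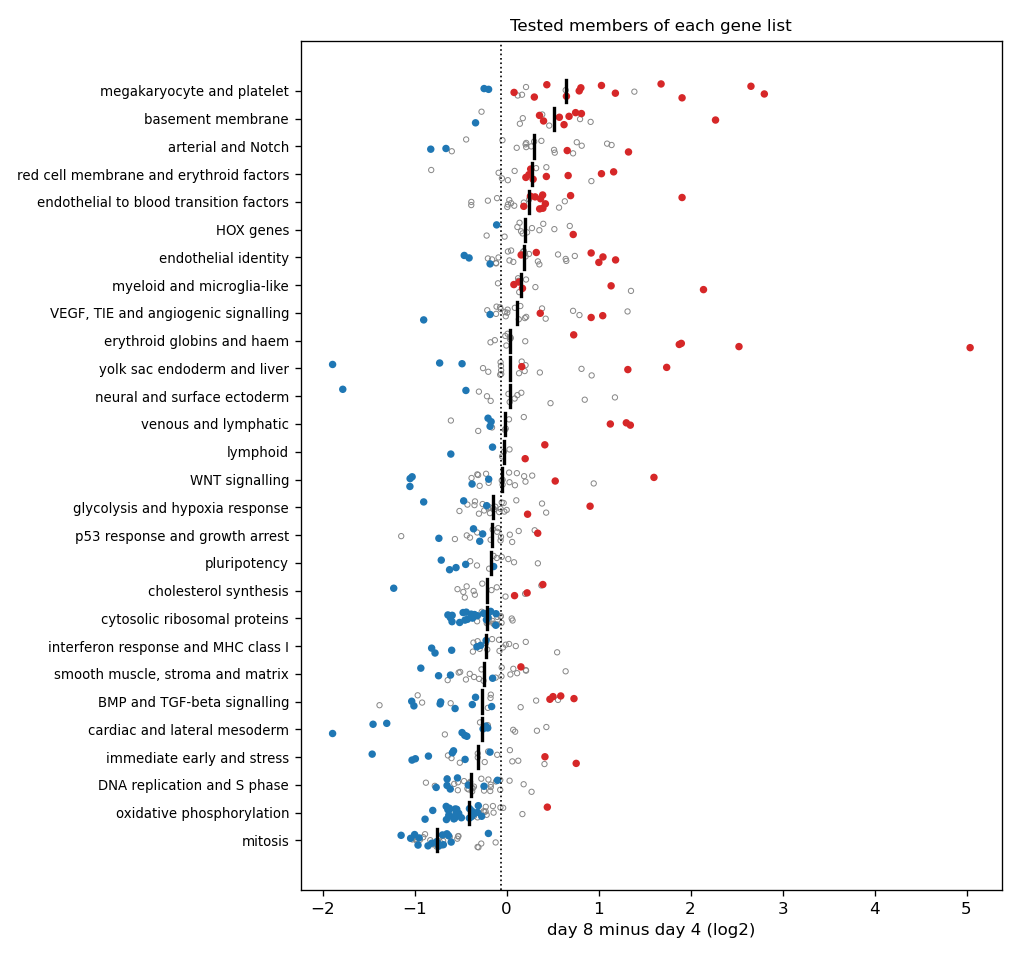
Difference between day 8 and day 4 (horizontal axis, log2) of each tested member of 28 gene lists (vertical axis), with a bar at the list's median and a dotted line at the median of all genes, −0.06. Filled red and blue points are members higher and lower at day 8 without overlap and open points are members that overlap. The platelet list has the highest median, 0.65, and the mitosis list the lowest, −0.76.

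The mitosis list had the lowest median difference, −0.76. Of 38 genes tested 0 were higher and 16 (42.1%) lower without overlap, beside 15.4% and 22.9% of all genes. Each of the 38 had a negative difference, as did 7560 of all 12870 genes. ANLN, a scaffold of the dividing furrow, stood at 11.54 and 10.70 at day 4 and at 10.28 and 9.67 at day 8. CDC25C, the phosphatase that lets cells enter mitosis, stood at 10.07 and 8.38 against 8.28 and 8.09, and PTTG1, securin, at 12.80 and 11.67 against 11.48 and 10.98. BUB1 and BIRC5, of the spindle checkpoint and the chromosomal passenger complex, had differences of −0.96 and −0.95. With all probe sets averaged BUB1 differed by −0.21, BIRC5 by −0.50 and CDC25C by −0.44. Most of this lay in replicate 1 of day 4. The median level of the list stood at 11.50 and 10.44 at day 4 and at 10.38 and 10.04 at day 8, with 11.61 and 10.01 between them at day 6. Against replicate 1 of day 4 alone the median difference was −1.32, and against replicate 2 it was −0.18.

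DNA replication genes were 0 of 36 higher and 8 (22.2%) lower without overlap. Of all genes 15.4% were higher and 22.9% lower, so the lower count was near that share. The list's median was −0.39. CDC6, which loads the replication helicase, stood at 9.22 and 8.22 at day 4 and at 8.12 and 7.80 at day 8, and PCNA, the sliding clamp, at 12.99 and 12.45 against 12.32 and 11.89. Against replicate 2 of day 4 alone the list's median was −0.01, so the difference rested on replicate 1, whose median list level was 10.44 against 9.74 for its partner. Without replicate 2 of day 8 it was −0.25.

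Nuclear genes of oxidative phosphorylation were lower without overlap in 26 of 39 (66.7%) and higher in 1 (2.56%), beside 22.9% and 15.4% of all genes. The median was −0.40. NDUFA2, a subunit of complex I, stood at 11.33 and 11.62 at day 4 and at 10.63 and 10.55 at day 8. COX6A1, a subunit of cytochrome oxidase, stood at 12.05 and 12.34 against 11.69 and 11.11, and ATP5PF, of ATP synthase, at 12.90 and 13.01 against 12.54 and 12.06. In these 3 genes replicate 1 of day 4 was not the highest array. Here the median held with either day 4 array, at −0.58 against replicate 1 and −0.31 against replicate 2, and was −0.27 after quantile normalization. Over all probe sets NDUFA2 differed by −0.32 and COX6A1 by −0.47. The member higher at day 8, ATP5F1C, turned negative, −0.15, over all its probe sets.

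Ribosomal protein genes were lower without overlap in 19 of 36 (52.8%) and higher in 0, beside 22.9% and 15.4% of all genes. Their median difference was −0.22. RPS9 stood at 13.13 and 13.30 at day 4 and at 13.01 and 12.14 at day 8, and RPL35 at 12.81 and 12.66 against 12.43 and 11.82. RPL14, of the large subunit, stood at 13.47 and 13.44 against 13.11 and 12.62. Replicate 2 of day 8, the lower of its day in these 3 genes, also had the highest GAPDH 3′ to 5′ ratio of the 4 arrays. The highest ACTB ratio, 19.0, was on replicate 1 of day 4, where the list's median level was also highest, 13.92. The part of RNA quality was not tested. The median was −0.35 against replicate 1 of day 4 and −0.13 against replicate 2, and −0.11 after quantile normalization. RPS9 differed by −0.33 and RPL14 by −0.25 over all probe sets.

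**Figure D5:**
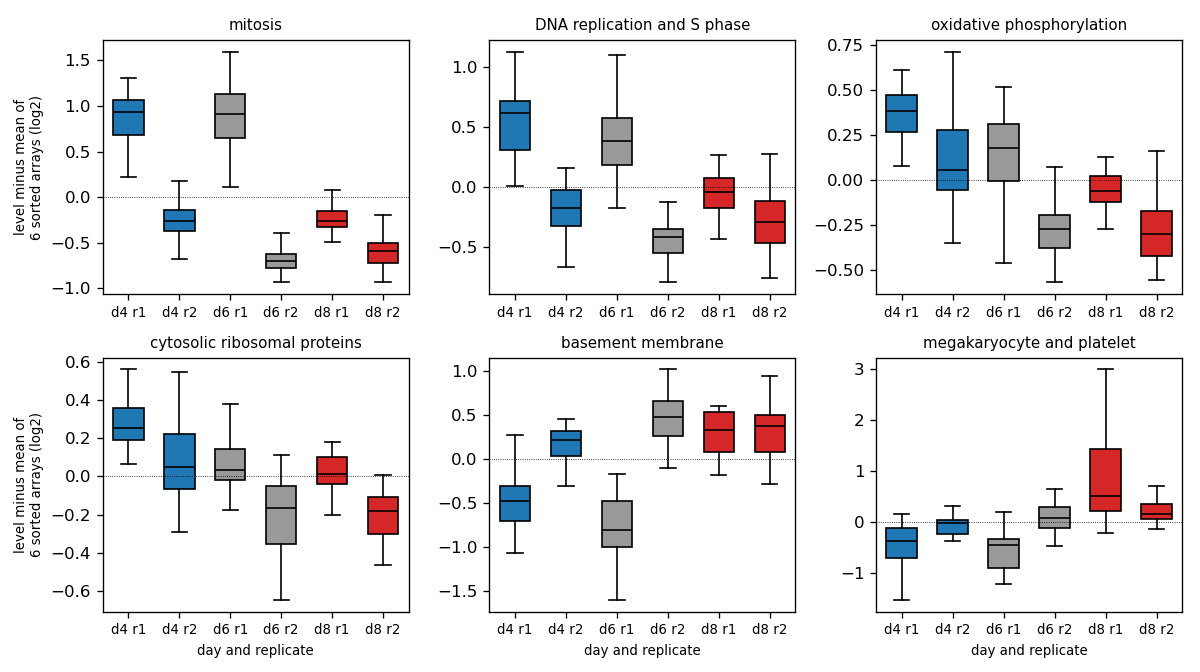
Levels of the tested members of 6 gene lists on the 6 sorted arrays, each gene centred on its mean over these arrays (vertical axis, log2), by day and replicate (d4 r1 is day 4, replicate 1), with day 4 in blue, day 6 in dark grey and day 8 in red. Boxes span the quartiles with a line at the median, and whiskers reach the farthest member within 1.5 box heights. Mitosis and replication genes are high on replicate 1 of day 4 and of day 6, and basement membrane genes are low there.

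For the remaining lists, counts without overlap stand beside 15.4% higher and 22.9% lower over all genes. Of 23 smooth muscle, stroma and matrix genes 1 was higher and 4 lower, with a median of −0.25 that ran from −0.56 to 0.03 with 1 array left out, the latter against replicate 2 of day 4 alone. TPM2, a tropomyosin, and COL1A2, a chain of collagen I, had differences of −0.93 and −0.74, and TPM2 of −0.41 over all probe sets. The smooth muscle and stroma markers, 4 of 5 above the median on all arrays, summed to 16000.8 and 9468.2 at day 4 and to 9090.4 and 8166.0 at day 8.

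Pluripotency genes were 0 of 14 higher and 5 lower, with LIN28A, an RNA-binding protein of stem cells, at 11.96 and 12.50 at day 4 and at 11.76 and 11.45 at day 8. GDF3, a TGF-beta family ligand of stem cells, and DPPA4 had differences of −0.71 and −0.55, and the median was −0.17, from −0.34 without replicate 1 of day 8 to −0.07 without replicate 2. In undifferentiated cells at day 0 GDF3 stood at 8.15 and 7.97, below each of the 4 arrays, while DPPA4 stood higher, at 12.69 and 12.58. Of the 5, DPPA2 passed the filter only through day 4. DPPA4 differed by −0.31 over all probe sets. NANOG lay below the array median on each of the 4 arrays. The markers of undifferentiated cells, 2 of 5 above the median on all arrays, summed to 5295.7 and 7103.0 at day 4 and to 5057.8 and 3607.1 at day 8. The ectoderm markers summed to 376.2 and 381.9 against 552.7 and 370.9, the highest sum again on replicate 1 of day 8. Of 13 neural and surface ectoderm genes 0 were higher and 2 lower, with a median of 0.03 that was −0.31 without replicate 1 of day 8.

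Interferon and MHC class I genes were 0 of 21 higher and 6 lower, with a median of −0.22 that was −0.11 against replicate 1 of day 4 alone and −0.12 without replicate 2 of day 8. OAS1, 1 of the 6, passed the filter only through day 4, and ISG15, a ubiquitin-like protein that interferon induces, stood at 9.26 and 10.26 against 9.0003 and 8.90. Glycolysis and hypoxia genes were 2 of 27 higher and 3 lower, with a median of −0.15, which was −0.50 against replicate 1 of day 4 and 0.21 against replicate 2. SLC2A1, the basal glucose transporter, stood at 9.62 and 8.77 at day 4 and at 10.14 and 10.07 at day 8, and SLC2A3, a further glucose transporter, at 13.38 and 13.37 against 13.19 and 13.12. Cholesterol synthesis genes were 3 of 16 higher and 1 lower, with a median of −0.21, which was −0.62 against replicate 1 of day 4 and 0.16 against replicate 2. The lower gene, SC5D, a late desaturase, stood at 12.50 and 12.49 against 11.54 and 10.99, and differed by −0.65 over both probe sets. HOX genes were 1 of 14 higher and 1 lower, with a median of 0.20 that ran from −0.12 without replicate 1 of day 8 to 0.51 against replicate 2 of day 4. HOXB3 stood at 10.84 and 10.48 against 11.29 and 11.49, and differed by 0.40 over both probe sets. Lymphoid genes were 2 of 7 higher and 2 lower, with GATA3, which is also a factor of other tissues, at a difference of 0.42 and CD79B, a subunit of the B cell receptor, at −0.61. Of 3 GATA3 probe sets above the filter 1 was higher, and the mean differed by 0.13, and CD79B differed by −0.27 over all probe sets. Genes of the p53 response were 1 of 20 higher and 4 lower, with a median of −0.16 that was −0.30 against replicate 2 of day 4 alone. GADD45B, a stress protein, differed by −0.74, and by −0.40 over all probe sets.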

How the data were processed

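Gene expression of sorted H9 cells was measured on Affymetrix arrays. The authors deposited linear intensity values, 1 per array for every probe set. MAS5 is named in the submitters' processing notes, and its version, its scaling and the genome build are not given in the sources used here. No detection calls were used, and no scaling was added.

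Values were taken as log2(intensity + 32), which understates the fold of dim genes. Of 54675 probe sets 41091 had 1 gene symbol, 1801 several, 11721 none and 62 were controls. For a gene with several probe sets the brightest on average over the 8 arrays was taken, and an _x_at set only if the gene had no other. Of 19775 genes, 12870 exceeded the array's median intensity on 2 or more of the 4 arrays and were tested, and 6905 were too dim. limma 3.58.1 in R 4.3.3 was fitted to the 4 arrays (lmFit, eBayes with trend, two-sided, 2 residual and 3.28 prior degrees of freedom), adjusted by Benjamini-Hochberg over all genes tested. The script was tested on simulated data.

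Genes named are the 15 largest differences in each direction among genes whose arrays do not overlap between days, the 5 widest gaps, any gene called, up to 5 members per list and direction without overlap, and KDR, PECAM1, CDH5, CD34, TAL1, GATA1, GATA2, HBE1, ALAS2, AFP and APOA2. Others are said to be named after their values were seen, or stand for a list fixed as cell type markers. HBB, UROS, PPOX, FECH, CPOX, UROD, ALAD and MMRN1 are list members named outside these rules. The comparison and the 29 gene lists (730 genes, 569 tested) were chosen with earlier results of these data known. Lists share members, and 80 of 762 list places had no probe set with 1 symbol. Figures used matplotlib 3.10.9 in Python 3.11.15.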

Additional observations from a re-analysis of the deposited data

How the results depend on the processing

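No gene was called in the fit reported, and 1 gene, HBE1, was called with a filter at the 75th percentile (adjusted p = 0.00791), and 1, again HBE1, after quantile normalization (adjusted p = 0.030). With 1 array left out, where the lone array of its day is assumed to vary like the other day, the count ran from 0 to 92. It was 1 without replicate 1 of day 4, 92 without replicate 2 of day 4, and 0 without either day 8 array, where the smallest adjusted p was 0.558 and 0.2195. The other alternatives, a lower and a higher offset, no filter, a filter over all 8 arrays, median centring, other probe set rules, no trend, and fits on 6 or 8 arrays, called 0 genes. The smallest adjusted p in the fits on 8 and on 6 arrays was 0.444 and 0.902, with 860 and 414 genes at an unadjusted p under 0.05.

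A replicate block called 0 genes, with 1301 at an unadjusted p under 0.05 against 698 without it. Deviations of same-numbered arrays correlated at 0.193 over only 2 pairs, so the arrays share a number and no known pairing.

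The 98 genes at least 2-fold higher without overlap became 54 with an offset 4 times as large, 40 with the mean of all probe sets, and 100 to 345 with 1 array left out (154 without replicate 1 of day 8). The 96 lower became 47, 57, and 57 to 545 (331 without replicate 1 of day 8). The choice of probe set and each array thus moved these counts. The direction turned for 8 named genes. With the mean of all probe sets ATP5F1C differed by −0.149, LSS by −0.0066, SFRP1 by 0.0658 and TAL1 by −0.156. TAL1 differed by −0.0009 and KDR by −0.0046 after median centring, and APOA2 by 0.0329 after quantile normalization. With 1 array left out, the differences ran from −0.146 to 2.00 for AFP, from −0.0905 to 0.804 for CDH5, from −0.323 to 0.353 for TAL1, from −0.128 to 0.151 for KDR and from −2.08 to 1.945 for APOA2, whose adjusted p was 0.0440 without replicate 2 of day 4. The cause of these moves was not tested. Few arrays limit the precision, and genes near the array median, such as HBZ, HBD and ALAS2 at day 4, sit close to background.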
